A study of Homo sapiens with 3 samples.

Results

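ACER2, MBOAT1, TCTN2 and NUDT11 are 4 human genes whose level was higher after knockdown of TAZ than after knockdown of YAP in A549 cells. They were picked for that difference, so the difference itself is described here and not tested. They are 4 of 14884 genes with a named probe set on the array, each is measured by 1 probe set, and all 4 passed the filter on dim probe sets, as did 10768 genes in all.

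A549 is an established line of human lung cancer cells. Cells were transfected with an siRNA against TAZ (siTAZ), an siRNA against YAP (siYAP) or a control siRNA (siNC), with a lipid reagent and in otherwise standard culture, and total RNA taken after 48 h was hybridised to 1-colour Affymetrix whole-transcript arrays. The groups share the line and the transfection, and each has 1 array. The labels give 1 siRNA name per target and do not say whether it was 1 sequence or a pool. There is no replicate, so no value below carries an error and no p-value is given. Levels are given as the deposited RMA values, on a log2 scale, where a difference of 1 is a 2-fold difference. In A549 cells a bulk array does not separate fewer cells carrying a transcript from less transcript per cell.

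YAP and TAZ, encoded by YAP1 and WWTR1, are related co-activators at the end of the Hippo pathway. They enter the nucleus when the pathway's kinases are inactive and act mainly through TEAD transcription factors, with overlapping sets of target genes. The 4 genes described here come from different parts of cell biology. MBOAT1 encodes a membrane-bound acyltransferase that puts fatty acids back onto lysophosphatidylethanolamine and lysophosphatidylserine. ACER2 encodes an alkaline ceramidase of the Golgi that splits ceramide into sphingosine and a free fatty acid, and it is a known target of p53. TCTN2 encodes a tectonic protein of the transition zone, the gate at the base of the primary cilium, and is mutated in Joubert and Meckel syndromes. NUDT11 encodes a nudix hydrolase that removes phosphate from inositol pyrophosphates.

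The knockdown arrays carried the labelled change in their own target. YAP1 was 8.24 in the siTAZ array, 6.87 in the siYAP array and 8.45 in the siNC array. WWTR1 was 5.81 in the siTAZ array and 6.50 in both the siYAP and the siNC array. The siTAZ array therefore held 62.2% of the control level of its target transcript, and the siYAP array 33.5% of its own. The YAP1 values are those of the brighter of its 2 probe sets. Epithelial keratin KRT18 (11.38 in siTAZ, 11.56 in siYAP, 11.56 in siNC) and the epithelial adhesion gene EPCAM (8.13, 8.19 and 8.23 in the same order) passed the filter. KRT7, another epithelial keratin, was 6.10 in siTAZ and 6.51 in both siYAP and siNC. Of the 6 epithelial markers that passed the filter, 4 were lower in siTAZ than in siYAP and 2 were identical, with KRT7 the lowest at -0.42, and the part of this in the results below was not tested. Alveolar type II cells are the lung epithelial type that A549 is often used to model. Of 9 markers of these cells, 8 had a named probe set and 6 passed the filter. The siTAZ minus siYAP differences of the 6 ran from 0 to 0.14. The surfactant gene SFTPA2 was 5.17 in siTAZ, 5.03 in siYAP and 5.10 in siNC, and the lung lineage factor NKX2-1 was 4.68 in siTAZ and 4.61 in both siYAP and siNC. Of 6 leukocyte, 6 endothelial and 7 fibroblast markers, 3, 4 and 3 in that order had a named probe set, and 2 of each passed the filter. The siTAZ minus siYAP differences of those that passed lay between -0.059 and 0.032. In siNC, leukocyte CD14 and CD68 were 4.49 and 8.43, and endothelial VWF and CLDN5 were 4.42 and 5.33. Fibroblast THY1 and LUM were 5.22 and 7.45. The type II markers lay within this range, so passing the filter does not mark a lineage. CD68 and LUM, the members of these lists that differed most from the control, were higher in both knockdown arrays, at 0.57 and 0.69 in siTAZ and 0.59 and 0.66 in siYAP relative to siNC, and so did not separate siTAZ from siYAP.

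**Figure D1:**
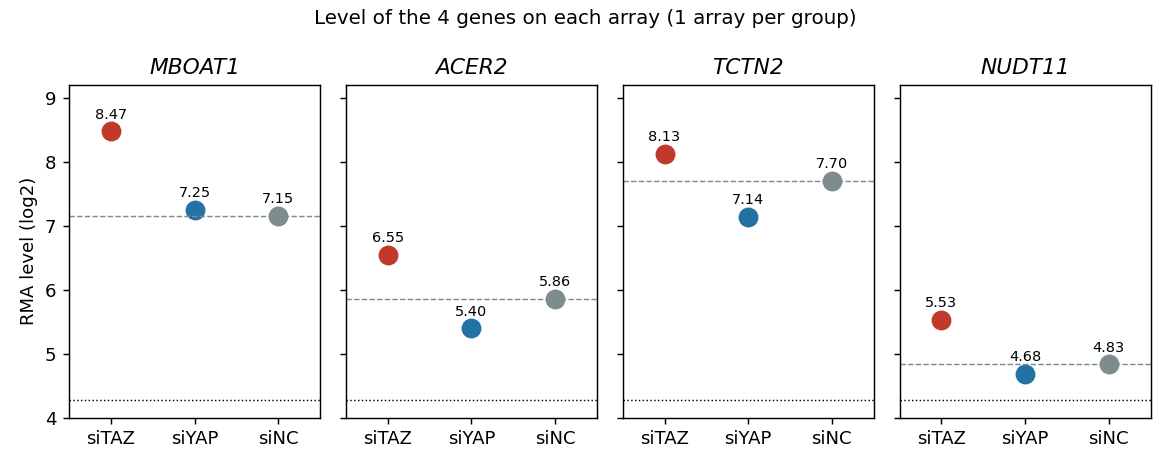
RMA level (log2, vertical axis) of each gene on the siTAZ, siYAP and siNC arrays, 1 point per array, with the control level as a dashed line and the filter on dim probe sets (4.27) as a dotted line. The siTAZ point is the highest in all 4 panels, while the siYAP point lies near the control for MBOAT1 and NUDT11 and below it for ACER2 and TCTN2.

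MBOAT1 had the largest siTAZ minus siYAP difference of the 4. Its level was 8.47 in the siTAZ array, 7.25 in the siYAP array and 7.15 in the siNC array. The siTAZ array stood alone, and the siYAP and siNC arrays lay close together. The siTAZ level was 2.34-fold the siYAP level (log2 difference 1.23) and 2.51-fold the control level (1.33), whereas siYAP was 0.098 above the control. Among the kept genes it ranked 3 from the highest in siTAZ minus siNC. The whole siTAZ to siYAP gap of MBOAT1 was thus on the siTAZ side of the control.

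ACER2 had a level of 6.55 in the siTAZ array, 5.40 in the siYAP array and 5.86 in the siNC array. Here the control lay between the knockdowns. ACER2 was 2.22-fold higher in siTAZ than in siYAP (1.15), at 161.1% of the control level in siTAZ and 72.5% of it in siYAP. Of the log2 gap between siTAZ and siYAP, 59.7% lay above the control.

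TCTN2 had a level of 8.13 in the siTAZ array, 7.14 in the siYAP array and 7.70 in the siNC array. As for ACER2, the control lay between the knockdowns, but the larger part of the gap lay below it. TCTN2 was 1.98-fold higher in siTAZ than in siYAP (0.99), at 134.5% of the control level in siTAZ and 67.8% of it in siYAP. Its siYAP minus siNC difference of -0.56 was number 47 from the bottom of the kept genes, while its siTAZ minus siNC difference of 0.43 was number 204 from the top. It was the only one of the 4 that did not reach 1.5-fold in siTAZ relative to the control.

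NUDT11 was the dimmest of the 4 probe sets relative to the filter. Its level was 5.53 in the siTAZ array, 4.68 in the siYAP array and 4.83 in the siNC array; the siYAP and siNC levels were close to the filter at 4.27. As with MBOAT1, the siTAZ array stood apart and the others lay close together. NUDT11 was 1.80-fold higher in siTAZ than in siYAP (0.85) and 1.62-fold higher in siTAZ than in siNC (0.70), with siYAP 0.15 below the control. Of its siTAZ to siYAP gap, 82.3% lay above the control. The fold of a probe set this dim is uncertain.

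At 1.5-fold, all 4 genes were higher in siTAZ than in siYAP, as were 0.176% of the kept genes (19 of 10768). At 2-fold the count was 2, MBOAT1 and ACER2, against 0.0279% of the kept genes. Nothing can be read from these counts, because the genes were chosen on this difference. The third gene at 2-fold was YAP1 itself, the target of siYAP, by the brighter of its 2 probe sets. With probe sets averaged per gene, YAP1 was below 2-fold and the count over all kept genes was 2. Relative to the control, 3 of the 4 (MBOAT1, NUDT11 and ACER2) were at least 1.5-fold higher in siTAZ, beside 0.762% of the kept genes, and 1 (MBOAT1) was at least 2-fold higher, beside 0.0743%. None of the 4 was at least 1.5-fold lower in siYAP than in siNC, beside 0.381% of the kept genes. TCTN2 came nearest to that, 1.47-fold lower in siYAP. These comparisons share the siTAZ or the siYAP array with the choice of the genes, so their counts are not independent of it either.

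**Figure D2:**
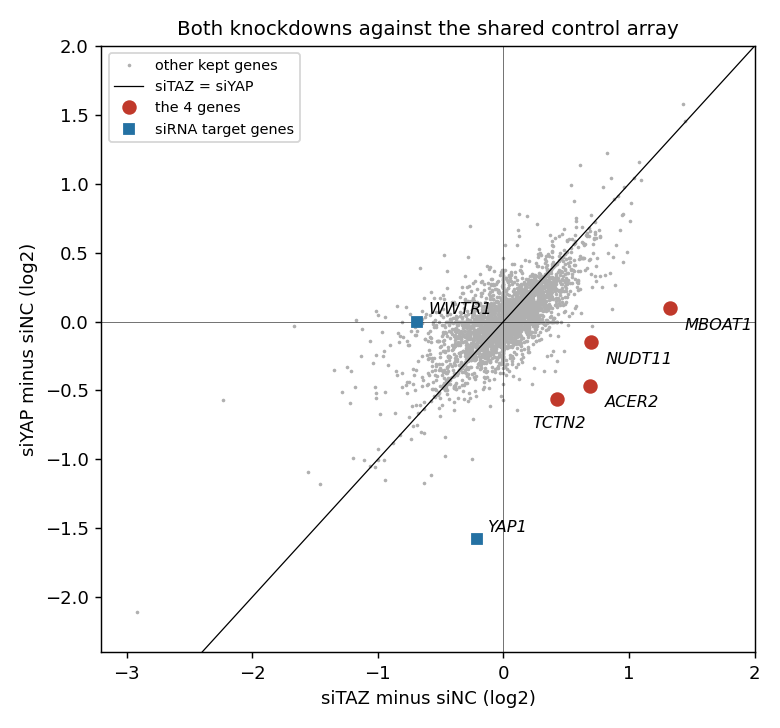
Each of the 10768 kept genes by its siTAZ minus siNC difference (horizontal axis, log2) and its siYAP minus siNC difference (vertical axis, log2), with the line where siTAZ and siYAP are equal. MBOAT1 lies far right at a siYAP difference of 0.098, NUDT11, ACER2 and TCTN2 lie right of and below the origin, and YAP1 lies below it at -1.58; both axes subtract the same control array.

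The control array thus divided the 4 genes by the arm in which they departed from it. In MBOAT1 and NUDT11 the siYAP array differed from the control by 0.098 and -0.15, and the siTAZ array carried most of the difference from siYAP. In ACER2 and TCTN2 both knockdown arrays departed from the control, in opposite directions. With a bound of 0.3 (log2) on each side, chosen after the values were seen, 4 kept genes (0.0371%) were above the control in siTAZ and below it in siYAP. This bound forces a siTAZ minus siYAP difference past 1.5-fold, so only the 19 genes at 1.5-fold could meet it and the share restates the choice of the genes. The 4 were ACER2, TCTN2, MTR, which encodes methionine synthase, and the microRNA gene MIR548H2. Another 4 genes (0.0371%) went the other way at the same bound, namely ITPK1, LRRCC1, PCNX3 and ZNF358. Without the bound, the control lay between a higher siTAZ and a lower siYAP value in 351 kept genes (3.26%).

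Many probe sets had exactly the same deposited value on several arrays, which none of the 4 genes did. Of the kept genes, 53.9% were identical in siTAZ and siYAP and 41.1% were identical on all 3 arrays. Among the genes that were not identical, the median size of the siTAZ minus siYAP difference was 0.083. The 4 genes lay at 0.85 to 1.23, beyond the 99.5th percentile of the kept genes, 0.42, where their choice places them. A value could also recur between genes: that of ACER2 in siYAP (5.40) was also that of LOC730101 in siTAZ and of ITPKA on all 3 arrays. What produced the equal values is not stated, so an identical value is not read here as a measured lack of change.

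**Figure D3:**
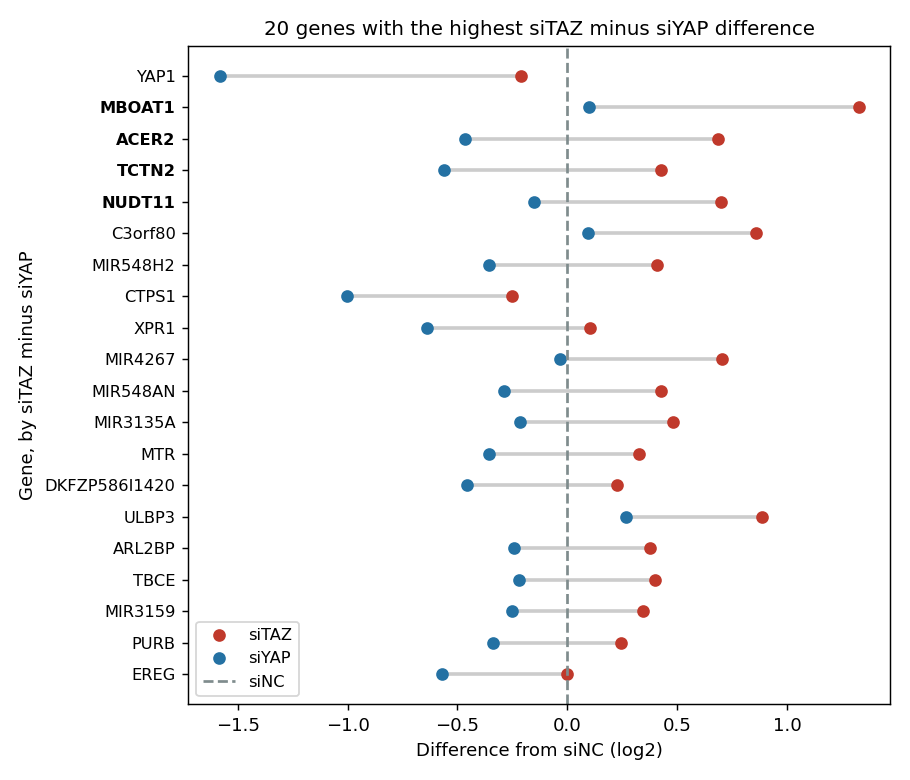
The 20 kept genes with the highest siTAZ minus siYAP difference, ordered from the top, with the difference of siTAZ and of siYAP from the control on the horizontal axis (log2) and the 4 genes in bold. MBOAT1, C3orf80 and ULBP3 have both points right of the control, CTPS1 and YAP1 have both left of it, and most others have the control between the points.

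In the order of siTAZ minus siYAP over the kept genes, the 4 genes held ranks 2 to 5 behind YAP1 (1.37). These ranks depend on the filter: without it 5 genes were at 2-fold or more, so TCTN2 and NUDT11 would rank lower. The next gene, C3orf80, was at 0.77, against 0.85 for NUDT11, and it was followed by MIR548H2 (0.77), CTPS1 (0.75), XPR1 (0.74) and MIR4267 (0.73). There was no wide step between the lowest of the 4 and the genes just outside. C3orf80, an uncharacterised open reading frame, was 7.46 in siTAZ, 6.69 in siYAP and 6.60 in siNC, the same layout as MBOAT1. C3orf80 and MIR4267 each have 2 probe sets, and the values are those of the brighter. With probe sets averaged per gene, 17 kept genes were at 1.5-fold. CTPS1, which encodes CTP synthase, was 7.62 in siTAZ, 6.86 in siYAP and 7.87 in siNC. It was below the control in both knockdown arrays and lay further below it in siYAP. XPR1, a phosphate exporter of the plasma membrane that inositol pyrophosphates regulate, was 10.03 in siTAZ, 9.28 in siYAP and 9.92 in siNC, so that it too departed from the control mainly in siYAP. Of the 19 genes at 1.5-fold, 13 were protein coding and 5 were microRNA genes. The control lay between the knockdowns in 14 of them, both knockdowns were above the control in 3 and both were below it in 2. A large siTAZ minus siYAP difference makes a control in between more likely, so this split describes the list only.

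The genes most like each of the 4 were taken as the 3 with the smallest distance in the plane of siTAZ minus siNC and siYAP minus siNC, a measure over 3 arrays. For ACER2 these were TCTN2 (distance 0.28 on the log2 scale), MIR548H2 (0.30) and NUDT11 (0.31), so 2 of its 3 neighbours were from the 4 genes. For TCTN2 they were MIR548H2 (0.20), the transcribed pseudogene DKFZP586I1420 (0.23) and MTR (0.23). MTR was 8.52 in siTAZ, 7.83 in siYAP and 8.19 in siNC, a smaller copy of the TCTN2 layout. The genes nearest to NUDT11 were MIR4267 (0.12), TRIML2 (0.23) and GPATCH11 (0.23). MBOAT1 had no close neighbour. The nearest was C3orf80 at 0.46, then ULBP3 (0.47), a stress-induced ligand of the receptor NKG2D, and the long non-coding RNA LOC730101 (0.50). ULBP3 was 7.11 in siTAZ, 6.49 in siYAP and 6.23 in siNC.

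The next question was whether other genes of the same pathways had similar values. Their differences were set beside those of all kept genes, whose median was 0 in each of the 3 comparisons.

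Of the close relatives of the 4 genes, 5 passed the filter, and 3 of these were identical in siTAZ and siYAP (53.9% of all kept genes were). ACER3, another alkaline ceramidase, was 7.60 in siTAZ, 7.57 in siYAP and 7.60 in siNC, and the probe set of ACER1 was below the filter and identical on the 3 arrays. TCTN1 was identical on the 3 arrays at 6.01. TCTN3, the remaining tectonic, was 8.80 in siTAZ, 8.62 in siYAP and 8.44 in siNC, higher than the control in both knockdowns by less than 1.5-fold. In siTAZ it was 0.36 above the control, near the 0.43 of TCTN2, but in siYAP it was 0.19 above the control where TCTN2 was 0.56 below. NUDT3, NUDT4 and NUDT10, which encode relatives of the NUDT11 protein, were each identical on the 3 arrays, at 6.76, 3.90 and 4.47, the NUDT4 probe set being below the filter. No named probe set of MBOAT2 was used here.

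**Figure D4:**
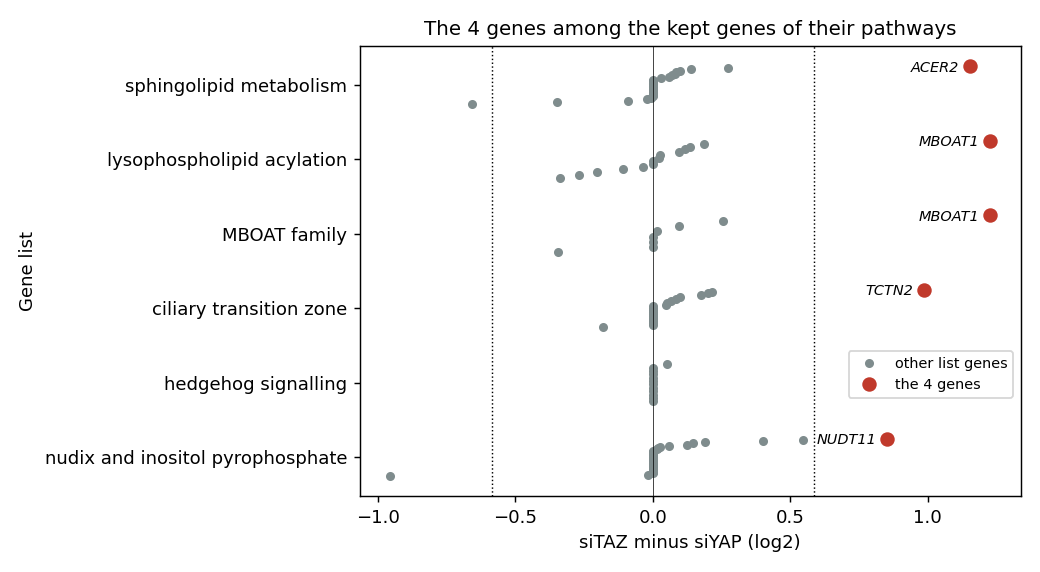
siTAZ minus siYAP difference (log2, horizontal axis) of every kept gene on 6 lists of related genes, 1 row per list and 1 point per gene, with dotted lines at 1.5-fold. The 4 genes lie at 0.85 to 1.23, right of the upper line, and no other listed gene passes that line.

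In phospholipid remodelling, 13 genes besides MBOAT1 passed the filter, of 15 with a named probe set among 32 listed. Their median siTAZ minus siYAP difference was 0, beside 0 over all kept genes, and none reached 1.5-fold in either direction, beside 0.176% higher and 0.566% lower of all kept genes. GPAT3, which starts glycerolipid synthesis from glycerol phosphate, was the listed gene farthest from the control. It was 7.58 in siTAZ, 7.47 in siYAP and 8.32 in siNC, lower in both knockdown arrays and so unlike MBOAT1. In the family of membrane-bound O-acyltransferases, to which MBOAT1 belongs, 10 other genes were listed and 8 had a named probe set. Of these, 7 passed the filter, and none of the 7 reached 1.5-fold in any comparison. Over all kept genes, 1.02% were at least 1.5-fold lower in siTAZ than in siNC and 0.52% at least 1.5-fold higher in siYAP than in siNC. The median of the 7 was 0 in siTAZ minus siYAP and 0.15 in siTAZ minus siNC. The cholesterol acyltransferase gene SOAT1 had the highest siTAZ minus siYAP difference among them, 0.26 (9.70 in siTAZ, 9.45 in siYAP and 9.52 in siNC), and SOAT2, a dim probe set that was 4.21 in siTAZ and 4.56 in both siYAP and siNC, the lowest.

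In sphingolipid metabolism, 25 genes besides ACER2 passed the filter, of 28 with a named probe set among 45 listed. Their medians were 0 in all 3 comparisons, beside 0 over all kept genes. None was at least 1.5-fold higher in siTAZ than in siYAP and 1, SGPL1, was at least 1.5-fold lower, beside 0.176% and 0.566% of all kept genes. SGPL1 encodes sphingosine-1-phosphate lyase, the enzyme that ends the pathway by cleaving sphingosine-1-phosphate, which is made from the sphingosine that ceramidases release. It was 7.32 in siTAZ, 7.98 in siYAP and 7.94 in siNC. ACER2 and SGPL1 thus both departed from the control in the siTAZ array, in opposite directions, with differences of 0.69 for ACER2 and -0.62 for SGPL1. In the siYAP array ACER2 was 0.46 below the control and SGPL1 was 0.036 above it.

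Of the genes of the ciliary transition zone, 20 besides TCTN2 passed the filter, of 21 with a named probe set among 27 listed. Their medians were 0 in all 3 comparisons and none reached 1.5-fold in any of them. Over all kept genes the shares at 1.5-fold were 0.176% higher and 0.566% lower in siTAZ than in siYAP, 0.762% and 1.02% in siTAZ than in siNC, and 0.52% and 0.381% in siYAP than in siNC, so a count of 0 among 20 genes is near the background. The highest siTAZ minus siYAP differences among them were 0.21 for TMEM216 and 0.20 for B9D2, both of which encode proteins of the same ciliary gate. TMEM216 was 6.67 in siTAZ, 6.46 in siYAP and 6.43 in siNC. B9D2 was 6.44 in siTAZ, 6.24 in siYAP and 6.46 in siNC, lower in siYAP as TCTN2 was but level with the control in siTAZ. The primary cilium carries Hedgehog signalling, and 12 genes of that pathway passed the filter, of 16 with a named probe set among 18 listed. Their siTAZ minus siYAP differences lay between 0 and 0.051, and 11 of the 12 were identical in the siTAZ and siYAP arrays, beside 53.9% of all kept genes. PTCH1, a receptor and target gene of the pathway, was 5.17 on all 3 arrays, and GLI2, one of its transcription factors, was 5.79 in siTAZ, 5.74 in siYAP and 5.79 in siNC.

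Of the nudix hydrolases and the enzymes of inositol pyrophosphate metabolism, 34 genes besides NUDT11 were listed. Of these, 32 had a named probe set and 31 passed the filter. Their medians were 0 in all 3 comparisons, and 20 of the 31 were identical in siTAZ and siYAP, as were 5800 of the 10768 kept genes. None was at least 1.5-fold higher in siTAZ than in siYAP and 1, ITPK1, was at least 1.5-fold lower, beside 0.176% and 0.566% of all kept genes. ITPK1 encodes a kinase that makes the more highly phosphorylated inositols from which inositol pyrophosphates are built. It was 6.88 in siTAZ, 7.84 in siYAP and 7.36 in siNC, below the control in siTAZ by 1.39-fold and above it in siYAP by 1.40-fold. NUDT11 ran the other way, above the control in siTAZ and slightly below it in siYAP. DCP2, the nudix enzyme that removes the cap from messenger RNA, was 7.51 in siTAZ, 6.96 in siYAP and 8.14 in siNC. It was below the control in both knockdown arrays, and further below in siYAP. NUDT19, a nudix gene whose enzyme cleaves coenzyme A, was 8.39 in siTAZ, 8.25 in siYAP and 7.62 in siNC, higher in both knockdowns.

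NUDT11 has a close copy, NUDT10, on the same chromosome, X, with 2 annotated genes between them (LOC100419238 and EZHIP) in assembly GRCh38.p14. Probes for such copies may share signal, and how much of the NUDT11 value is NUDT10 transcript was not tested. The NUDT10 probe set was close to the filter and identical on all 3 arrays at 4.47, as 41.1% of the kept genes were. Its value therefore does not answer how much signal is shared. RefSeq promoter sequences (GRCh38.p14, 250 bases before to 50 after the annotated start) matched 2 of the 4 genes, NUDT11 and ACER2. The NUDT11 promoter (chrX:51496543-51496842, minus strand) and the promoter of the downstream NUDT10 start (chrX:51332572-51332871, plus strand) are shown to let the likeness of the copies be seen. Capitals mark the longest run they share, 51 bases.
NUDT11: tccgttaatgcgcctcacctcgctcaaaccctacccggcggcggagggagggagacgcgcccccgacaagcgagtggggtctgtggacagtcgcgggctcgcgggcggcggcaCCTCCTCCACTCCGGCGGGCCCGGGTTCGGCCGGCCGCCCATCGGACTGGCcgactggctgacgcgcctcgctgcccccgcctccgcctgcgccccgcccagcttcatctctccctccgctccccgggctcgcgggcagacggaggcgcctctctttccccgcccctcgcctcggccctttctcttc
NUDT10: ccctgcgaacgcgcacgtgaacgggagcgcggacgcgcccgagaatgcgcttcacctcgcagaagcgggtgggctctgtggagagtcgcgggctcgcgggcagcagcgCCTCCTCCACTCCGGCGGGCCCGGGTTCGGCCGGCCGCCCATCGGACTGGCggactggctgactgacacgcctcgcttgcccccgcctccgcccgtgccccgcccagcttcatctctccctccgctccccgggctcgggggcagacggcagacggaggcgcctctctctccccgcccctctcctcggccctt
Aligned end to end, they were identical at 251 of 280 paired bases (89.6%), leaving out 40 gap positions. The NUDT11 and ACER2 promoters, aligned in the same way, were identical at 159 of 237 (67.1%), leaving out 126 gap positions. The other listed NUDT10 start, at chrX:51331981-51332280, had a longest shared run of 9 bases with the NUDT11 promoter.

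The ACER2 promoter (chr9:19408759-19409058, plus strand) is shown because ACER2 lay on both sides of the control, with capitals marking the 50 bases after the annotated start.
ACER2: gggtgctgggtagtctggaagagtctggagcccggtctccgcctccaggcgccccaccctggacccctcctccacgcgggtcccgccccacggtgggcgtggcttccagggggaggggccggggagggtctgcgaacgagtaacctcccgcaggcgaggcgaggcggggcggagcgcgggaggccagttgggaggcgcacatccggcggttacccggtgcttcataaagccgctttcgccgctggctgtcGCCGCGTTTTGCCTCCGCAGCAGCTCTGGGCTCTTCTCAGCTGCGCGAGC
Both gene promoters were rich in G and C, 74.7% for NUDT11 and 71.7% for ACER2, against a median of 58.7% over 35116 promoters. The core TEAD motif GGAATG, read on both strands, was found in neither, nor was the AP-1 motif TGANTCA. These motifs occur in 14.0% and 7.71% of all promoters of the same length. These letters are absent from these windows only, and enhancers, through which TEAD factors often act, were not examined. The NUDT10 promoter shown also held neither motif, and that of the other NUDT10 start held 1 AP-1 match.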

How the data were processed

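The data are 3 arrays of A549 cells, 1 each for siTAZ, siYAP and siNC, grouped by the labelled siRNA. The authors deposited 1 value per probe set and array for 53617 probe sets, made with RMA (background correction, quantile normalization, median polish) per the submitters' processing notes, which give no version. The scale of the deposited values was read as log2 because they run from 0.96 to 13.5. Probe sets were named from the platform annotation (16098 named, each with 1 symbol, and 37519 unnamed here). All 16098 Entrez identifiers matched RefSeq (GRCh38.p14) and 0 symbols changed. The brightest probe set stood for its gene, and genes whose mean level was at or above the median of all probe sets (4.27) were kept. A difference is one log2 level minus another, and a fold is 2 raised to it. With 1 array per group, precision cannot be stated and no test was made. The subtraction and the counts past a fold were checked on simulated gene levels with known folds, and the motif search on made-up sequences. The other steps were not checked in this way. Python 3.11.15, pandas 2.3.3, statsmodels 0.14.6 (loess alternative) and Biopython 1.88 (promoter alignment) were used.

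The 4 genes and all gene lists were chosen with earlier results of these data known, and the lists were written from general knowledge. Genes named are the 4, their paralogues, YAP1 and WWTR1, the 3 nearest to each by distance, the 5 next below in siTAZ minus siYAP, and up to 4 members per list and comparison at 1.5-fold, or else the 2 with the largest siTAZ minus siYAP. EPCAM is named besides, and was chosen after its value was seen, as were the genes on both sides of the control. Results were recomputed with every gene kept, with the filter moved to percentile 75, with differences centred on 0, after subtracting a loess trend (span 0.4), after another round of quantile normalization, and with probe sets averaged per gene. Scanner files and probe sequences were not used here.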

Additional observations from a re-analysis of the deposited data

How the results depend on the processing

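The siTAZ minus siYAP, siTAZ minus siNC and siYAP minus siNC differences of the 4 genes kept their direction, and moved by at most 0.1 or 1.5 times, in all 48 recomputations (4 genes, 3 comparisons and 4 alternatives). To 2 decimals, siTAZ minus siYAP stayed at 1.23 for MBOAT1, 1.15 for ACER2, 0.99 for TCTN2 and 0.85 for NUDT11. As each gene has 1 probe set, the mean over probe sets could not change its value. Centring could not either, because the median difference was already 0 in each comparison. Subtracting the loess trend left siTAZ minus siYAP unchanged for all 4 genes. Of 72 recomputed counts of genes past a fold, 70 were within 1.5 times the reported count. Without the filter on dim probe sets, 32 genes were at least 1.5-fold and 5 at least 2-fold higher in siTAZ than in siYAP, because more genes were counted. Also without the filter, the 3 genes nearest to MBOAT1 shared 0 with those given, those of NUDT11 shared 1, and those of ACER2 and TCTN2 shared 2 each, so the neighbours depend on which dim genes are let in. No paired analysis was possible because each group has 1 array. These alternatives do not stand in for replicates: a difference between 2 arrays may come from the culture, the transfection or the array as well as from the siRNA, and these cannot be told apart here.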
